A study of Mus musculus with 9 samples.

Results

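The carbonic anhydrase genes described here are Car1, Car2, Car3, Car4, Car5a, Car8, Car13, and Car14, which are 8 of the 24341 genes in the deposited expression table. They are members of 1 gene family, selected on their FPKM values in the same 3 treated and 6 control livers that are described below, so their values are given as a description without a test. The study sequenced mRNA from bulk liver of C57BL/6 wild-type (WT) mice to learn how systemic CD40 activation changes this organ. Livers from 3 mice given anti-CD40 (clone FGK45, an antibody that activates CD40, labeled CD40 in the records) were compared with livers from 6 control mice, labeled PBS, and all were collected 48 hours after treatment. All samples were separate mice, identified below by the numbers in their labels. The labels state neither age nor sex. The X-linked gene Xist was 2.23 to 3.82 FPKM across the mice. The Y-linked genes Ddx3y, Eif2s3y, Kdm5d, and Uty were at 0.01 in all of them, which is the pattern of female mice. The study's methods describe sex-matched adult mice for general use. Those methods also removed anti-CD40 mice in which the expected fall of blood B cells did not occur. Whether this applied to the 3 sequenced mice is not stated, so the treated group may hold responding animals by selection.

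Carbonic anhydrases catalyze the reversible hydration of CO2 to bicarbonate and a proton, using a zinc ion held by histidines. The family covers different compartments of the cell. Car1, Car2, Car3, and Car13 are cytosolic, Car5a is mitochondrial, Car4 is anchored on the outer face of the plasma membrane, and Car14 spans that membrane. Car8 is a family member without catalytic activity that binds the inositol trisphosphate receptor. In hepatocytes, bicarbonate made in mitochondria feeds carbamoyl phosphate synthesis in the urea cycle and pyruvate carboxylation in gluconeogenesis.

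The stretch of coding sequence at the zinc site shows what the catalytic members share. Each line gives 30 bases in the direction of the gene, read from GENCODE M21 transcripts on the mm10 (GRCm38) build, with the codons for the first and second zinc-binding histidines in capitals.
Car1, exon 3, chr3:14776269-14776298, minus strand: actcagttcCATtttCACtggggcaactca
Car2, exon 3, chr3:14895060-14895089, plus strand: atccagtttCACtttCACtggggctcatct
Car3, exon 3, chr3:14866841-14866870, plus strand: cgccaattcCATcttCACtggggctcctct
Car4, exon 4, chr11:84964158-84964187, plus strand: gtacagttgCACctgCACtggtcaaatggg
Car5a, exon 3, chr8:121927134-121927163, minus strand: aagcagtttCATttcCACtggggagcaaca
Car13, exon 3, chr3:14650697-14650726, plus strand: cggcagttcCATttgCACtgggggtcagca
Car14, exon 4, chr3:95900297-95900326, minus strand: gcccagctcCACctgCACtggggtcagaga
In these 7 members the first capital codon was CAT or CAC, which both encode histidine, and the second was CAC. Over the whole coding sequence, identity between the 8 members lay between 59.0% and 67.3% across 28 pairs, highest for Car1 and Car3. The longest identical run was 30 bases, between Car2 and Car13. The 3′ ends, where reads of this library type begin, were not compared.

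The members Car13, Car1, Car3, and Car2 lie together on chromosome 3 and did not move alike. Their positions, in this order along the chromosome, are Car13 (chr3:14641727-14663002), Car1 (chr3:14766214-14808365), Car3 (chr3:14863538-14872381), and Car2 (chr3:14886269-14900770), by RefSeq positions on GRCm38, used for the genes below as well. The gaps between neighbors were 103.211 kb, 55.172 kb, and 14.052 kb. Within this cluster Car13 had every anti-CD40 mouse above every control mouse, Car1 and Car3 had every anti-CD40 mouse below, and Car2 overlapped between the groups.

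Levels are given as FPKM, which scales the fragments of a gene to its transcript length and to all fragments mapped in the library, with 0.01 as the lowest value the table holds. Differences are given on the log2(FPKM + 0.1) scale as anti-CD40 minus control, with the standard error from limma fitted over 13807 genes. In control livers Car3 had the highest FPKM of the family, between 207 and 413, above every other family gene in all 6 mice. Car5a (19.5 to 37.9) and Car8 (18.6 to 31.3) followed and did not differ beyond their spread, and both were above Car2 in all 6 mice. Car2 (5.98 to 16.5) and Car1 (4.20 to 7.77) overlapped in range, as did Car14 (1.06 to 3.33) and Car5b (0.717 to 1.60), the second mitochondrial form. Car4 and Car13 had little expression in controls, at up to 0.221 and 0.184. FPKM divides by transcript length although 3′ reads do not grow with length, so this order holds on the FPKM scale only. Summed over the 8 members, FPKM lay between 275 and 494 in control mice and between 23.2 and 29.4 in anti-CD40 mice. Car3 made up 74.4% to 85.0% of that sum in controls and 7.53% to 18.8% after anti-CD40.

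**Figure D1:**
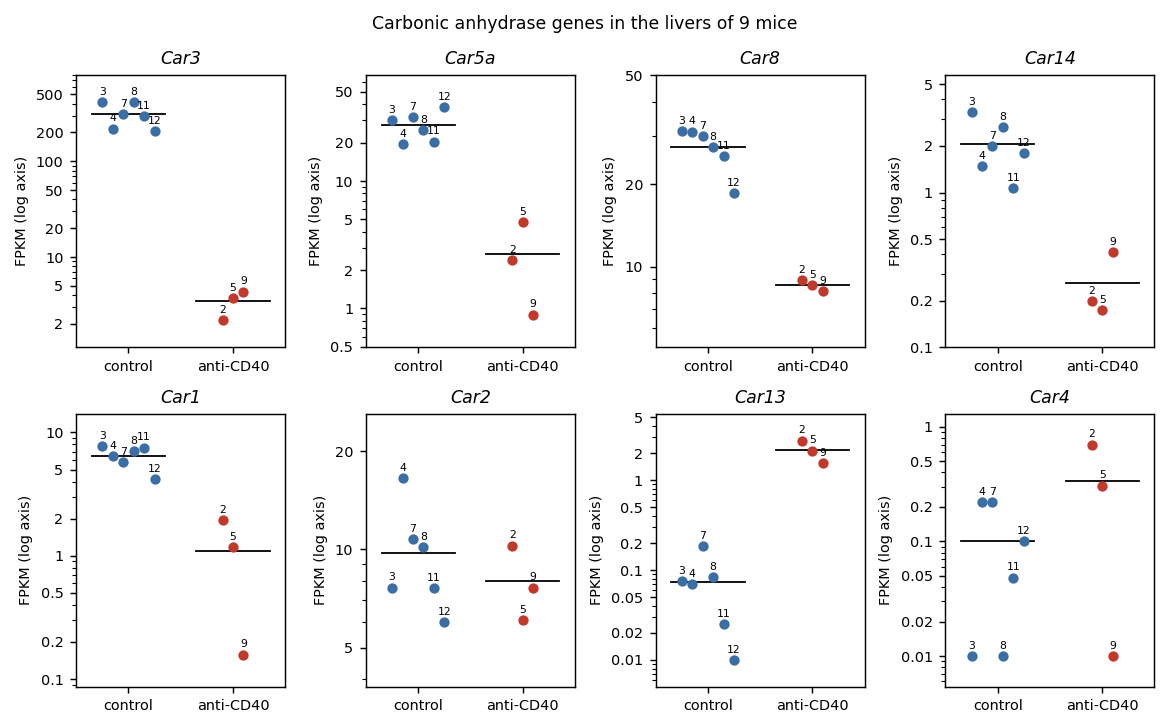
FPKM on log axes for the 8 genes in each liver, with points numbered by mouse and a black line at each group mean (6 control mice in blue, 3 anti-CD40 mice in red). Car3, Car5a, Car8, Car14, and Car1 lay lower in all 3 anti-CD40 mice than in any control mouse, Car13 lay higher, and Car2 and Car4 overlapped. Points at 0.01 are at the lowest value of the table.

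Car3, an abundant cytosolic form of low hydratase activity found in liver, muscle, and fat, showed the widest separation. The treated livers had FPKM values of 2.22 (mouse 2), 3.73 (mouse 5), and 4.36 (mouse 9), against a lowest value of 207, a median of 302, and a highest value of 413 in the controls. The groups did not overlap, and the lowest control lay 47.5-fold above the highest anti-CD40 mouse. Group means were 3.44 ± 1.10 (SD, n = 3) and 309 ± 89.5 (SD, n = 6), which is 90.0-fold lower after anti-CD40, and the log2 difference was -6.45 (SE, 0.27). Over 10155 genes averaging 1 FPKM or more, those whose pattern over the 9 mice was closest to that of Car3 were Vsig4, Clec4f, and Cyp2b13, with root mean square differences of 0.47, 0.53, and 0.60 on the log2 scale. Here and for the members below, values were taken relative to each gene's control mean, so genes with a similar group difference come out close. The group differences of these 3 were -6.50, -6.77, and -5.55. Vsig4 and Clec4f are markers of Kupffer cells, the resident macrophages of the liver, and Cyp2b13 is a cytochrome P450 gene. Mean FPKM fell from 40.4 to 0.405 for Vsig4 and from 20.8 to 0.107 for Clec4f. Of the 10 macrophage markers examined, 5 were lower after anti-CD40 (Clec4f, Vsig4, Cd5l, Marco, and Adgre1). Another 4 were higher (Cd14, Lyz2, Ccr2, and Cd68), and Csf1r did not pass. Over all genes tested, 21.7% were lower and 23.5% higher at an adjusted p under 0.05. The summed FPKM of the macrophage markers overlapped (304 to 403 against 307 to 465), which hides the opposite changes among them. The part of macrophages in Car3 was not tested.

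Fat and muscle markers were examined beside Car3 because both tissues also express it. The 8 adipocyte markers summed to 334 and 363 in control mice 4 and 7, to between 4.42 and 28.3 in the other controls, and to between 7.21 and 10.3 in anti-CD40 mice. Car3 was 219 and 309 in control mice 4 and 7, within the range of the other controls, and its log2 difference was between -6.65 and -6.09 under all 17 alternatives, which include leaving those mice out. The 9 skeletal muscle markers summed to 7.96 to 12.6 in anti-CD40 mice and 2.56 to 5.73 in controls. Most of the anti-CD40 sum came from Tnni2 alone (6.15 to 10.8 FPKM), so the sum does not describe the list. Of the 9 markers, 7 were at most 0.5 FPKM in every mouse, with Myh1 and Myh4 listed at 0.01 in all mice. Of the 2 tested, Tnni2 rose by 2.47 on the log2 scale and Mylpf fell by 0.57 (adjusted p = 0.000612 and 0.0387, limma). The part of fat or muscle in Car3 beyond these values was not tested.

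Car5a (chr8:121916135-121944912), the mitochondrial form of hepatocytes, was also lower in every anti-CD40 mouse. Its FPKM was 2.39, 4.75, and 0.892 in mice 2, 5, and 9, whereas the controls had a lowest value of 19.5, a median of 27.6, and a highest value of 37.9. The steps between low values in the table correspond to 220, 412, and 72 reads in the anti-CD40 mice and 1604 to 2839 reads in the controls. The groups were separate, but the anti-CD40 mice differed among themselves by 5.33-fold. Means were 2.68 ± 1.95 (SD, n = 3) and 27.5 ± 7.09 (SD, n = 6), a 10.3-fold lower level, with a log2 difference of -3.55 (SE, 0.41) that was -2.95 without anti-CD40 mouse 9. Mouse 5, the highest of the treated mice for Car5a, also had pancreatic acinar transcripts (summed FPKM 1351, against 28.2 to 190 in the other 8 mice), and the difference was -4.14 without that mouse and control mice 4 and 7. BC048644 overlaps the 3′ part of Car5a on the opposite strand, but its FPKM was at most 0.0887 in any mouse. The patterns closest to Car5a were those of Hyi, Hsd3b2, and Cyp2g1 (0.32, 0.40, and 0.41).

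Car8 (chr4:8141493-8239041) was lower by a smaller factor and varied least among the members. The treated livers had FPKM values of 8.96 (mouse 2), 8.57 (mouse 5), and 8.16 (mouse 9), against 18.6 to 31.3 with a median of 28.7 in the controls. The spread within the anti-CD40 group was only 4.68% of its mean, compared with 17.8% in the controls, and the groups were 2.07-fold apart at their nearest. The mean was 3.19-fold lower, and the log2 difference was -1.64 (SE, 0.16). That difference was -1.28 (SE, 0.19) when the remaining genes were rescaled without the serum amyloid A genes Saa1, Saa2, and Saa3. The genes most alike in pattern were Ugt2b36, Nqo2, and Fam210a (0.11, 0.14, and 0.14).

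Car14 (chr3:95897768-95905117), the transmembrane form, showed the same direction at a lower level. FPKM was 0.198, 0.174, and 0.413 in mice 2, 5, and 9, and the controls had 1.06 at the lowest, 1.90 at the median, and 3.33 at the highest. No anti-CD40 mouse reached the lowest control. The log2 difference was -2.55 (SE, 0.34), and it was -1.24 with a pseudocount of 1 because the anti-CD40 values are small. Aph1a, a gamma-secretase subunit gene on the opposite strand, shares 521 bases at its 3′ end with the 3′ end of Car14 in the GENCODE annotation, and its FPKM was 24.6 to 31.4 after anti-CD40 and 45.2 to 97.2 in controls. Strand-specific counting is not stated for the table, so reads of both genes in the shared stretch cannot be told apart. As a percentage of the Aph1a value, Car14 was 0.676% to 1.32% after anti-CD40 and 1.65% to 4.07% in controls. Afmid, Fhit, and Lrtm1 had the closest patterns (0.34, 0.35, and 0.36).

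The lower values of Car3, Car5a, Car8, and Car14 accompanied a change in hepatocyte transcripts. Of 11 hepatocyte markers tested, 8 fell, beside 21.7% of all genes, and Apob and Fgb rose, beside 23.5%. Hnf4a did not pass (log2 difference -0.44, adjusted p = 0.139, limma). The summed FPKM of the hepatocyte markers was 25828 to 31285 after anti-CD40 and 56169 to 117887 in controls, and none of them was at 0.01 in all mice. In bulk tissue, fewer cells of a type and less RNA per cell cannot be told apart, and the part of this shift in the differences of the carbonic anhydrase genes was not tested.

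Car1 and Car2, both abundant in red blood cells, differed from each other. Car1 was 1.94 (mouse 2), 1.18 (mouse 5), and 0.158 (mouse 9) after treatment, equal to 42, 24, and 3 reads, against 4.20 at the lowest, 6.73 at the median, and 7.77 at the highest in the controls, which had 74 to 145 reads. All 3 anti-CD40 mice lay below all controls, and mouse 9 lay far below the other two. The log2 difference of Car1 was -2.88 (SE, 0.52), -1.99 without mouse 9, and -3.49 without mouse 2, so its size depends on single mice. Endog, Gm11837, and Tm7sf2 were closest in pattern (0.49, 0.57, and 0.62).

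Car2, the high-activity cytosolic form, had values of 10.3 (mouse 2), 6.08 (mouse 5), and 7.64 (mouse 9) after treatment, and 5.98 at the lowest, 8.90 at the median, and 16.5 at the highest in the controls. The groups overlapped throughout. The log2 difference was -0.24 (SE, 0.29), smaller than its error, and its sign changed to 0.12 when the remaining genes were rescaled without Saa1, Saa2, and Saa3, the serum amyloid A genes. Lhfpl2, Zfp955a, and Wrb were closest in pattern (0.19, 0.19, and 0.20).

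Erythroid markers were set beside both genes. The 10 listed erythroid genes present in the table summed to 14321, 4765, and 4177 in anti-CD40 mice 2, 5, and 9 and to between 7495 and 50537 in controls. Hba-a1 was listed at 0.01 in all mice. Of 8 markers tested, 1 passed, beside 45.1% of all genes. It was the erythroid transcription factor Klf1, which fell by 2.17 on the log2 scale (adjusted p = 0.000105, limma). Control mouse 4 had the highest erythroid sum and the highest Car2 of the controls, and mouse 2 had the highest of both in the anti-CD40 group. Car1 in control mouse 4 (6.44) was in the middle of the controls. Car1 in anti-CD40 mouse 2 was lower than in every control, and the erythroid sum of mouse 2 was above that of 5 of them. The part of red cell content in either gene was not tested. Without control mice 4 and 7 and anti-CD40 mouse 5, the log2 difference of Car2 was 0.20.

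**Figure D2:**
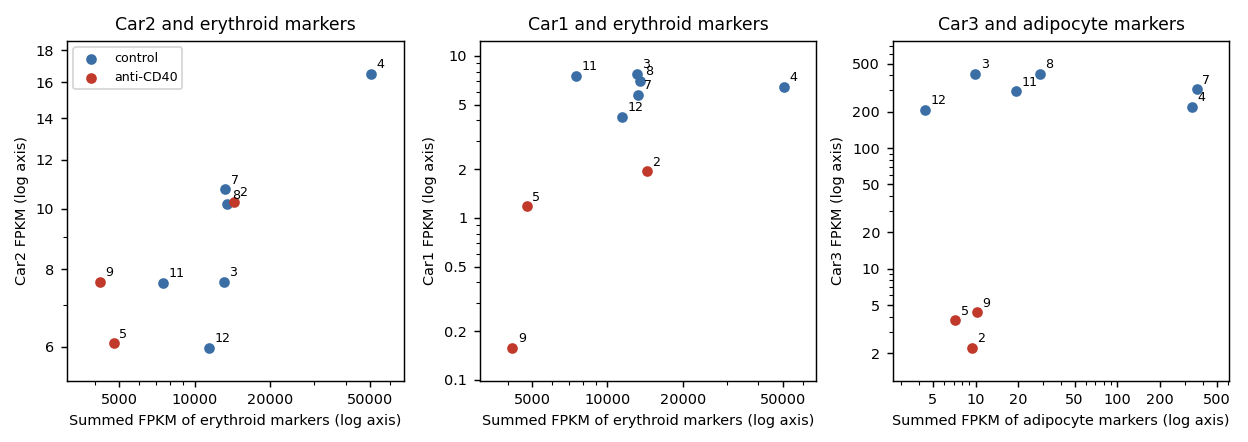
FPKM of Car2, Car1, and Car3 (vertical, log axes) against the summed FPKM of erythroid or adipocyte markers (horizontal, log axes) in each numbered mouse, with 6 controls in blue and 3 anti-CD40 mice in red. Control mouse 4 stands at the right of both erythroid panels and is highest for Car2 but not for Car1, and control mice 4 and 7 stand at the right of the adipocyte panel without the highest Car3.

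Car13 was the one member for which all treated livers lay above all control livers. This cytosolic form was 2.76, 2.13, and 1.55 in mice 2, 5, and 9, against a lowest value of 0.01, a median of 0.0722, and a highest value of 0.184 in the controls. These values stand for 128, 93, and 63 reads after anti-CD40 and 8 reads or fewer in each control, with 18 reads over all 6. Means were 2.15 ± 0.604 (SD, n = 3) and 0.0746 ± 0.0612 (SD, n = 6), a 28.7-fold higher level that counts the control mouse without a read at 0.01. The log2 difference of Car13 was 3.72 (SE, 0.31), and it ranged from 1.53 with a pseudocount of 1 to 4.98 with a pseudocount of 0.01, because the control values are close to none. Read numbers carry differences between mice as well as counting error, and they are not scaled to the depth of each library.

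Several marker lists were higher in the same mice as Car13. The 9 neutrophil markers tested all rose, beside 23.5% of all genes. The sum over the list was 4230 to 5220 after anti-CD40 against 19.2 to 157 in controls. The bile duct markers summed to 69.7 to 101 against 10.8 to 19.7, with Sox9 and Spp1 rising among 7 tested and Krt19 and Krt7 not passing (adjusted p = 0.235 and 0.671, limma). The part of either cell type in Car13 was not tested.

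Car4 (chr11:84957754-84966054), known from the capillary endothelium, had too few reads to compare. FPKM values were 0.701 (mouse 2), 0.307 (mouse 5), and 0.01 (mouse 9) after treatment, from 17, 7, and 0 reads, and 0.01 to 0.221 with a median of 0.0749 in controls, from 13 reads in all. Mice 2 and 5 lay above every control and mouse 9 had no read, so the groups overlapped. The log2 difference was 0.85 (SE, 0.60), with 0.21 when mouse 2 was left out and 1.64 when mouse 9 was left out. Endothelial markers summed to 86.8 to 99.8 after anti-CD40 and 92.9 to 123 in controls. Among 8 tested, 2 were higher and 3 lower, beside 23.5% and 21.7% of all genes.

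In counts, 6 of the 8 members were past an adjusted p of 0.05, 5 lower and 1 higher, and the same 6 did not overlap between groups. Over all genes tested, 45.1% passed (21.7% lower and 23.5% higher) and 42.4% did not overlap. Because the family was picked with these differences known, nothing is read from that count. The median log2 difference was -2.09 over the members and 0.0056 over all genes, and nothing is read from that difference either. With Saa1, Saa2, and Saa3 left out (25.4% to 25.9% of summed FPKM after anti-CD40 and at most 0.380% in controls), the median of all genes moved to 0.35, and with quantile normalization it moved to -0.091. Under either scaling, the members other than Car2 kept their direction.

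**Figure D3:**
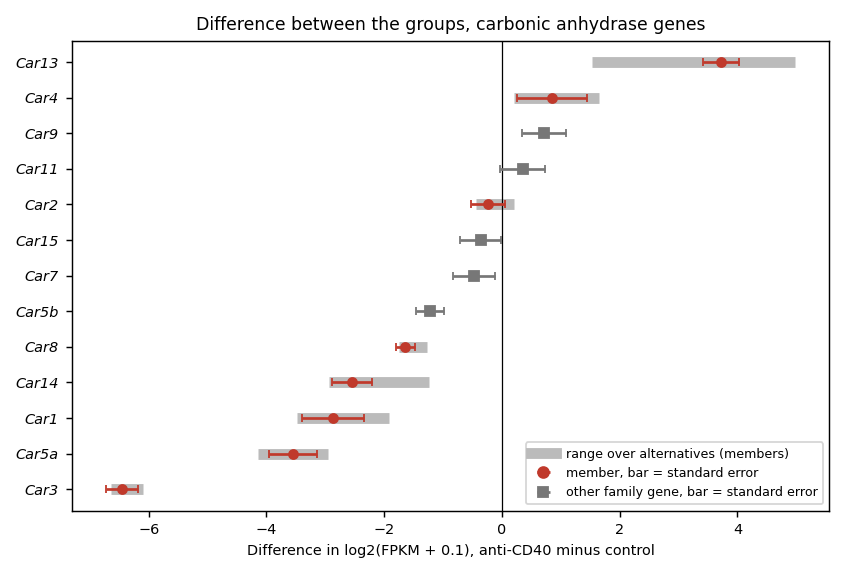
Difference in log2(FPKM + 0.1), anti-CD40 minus control, for the 8 members (red circles) and the 5 other carbonic anhydrase genes averaging 0.1 FPKM or more (gray squares), with standard errors as bars and, for members, the range over the alternative settings in light gray. Values run from -6.45 for Car3 to 3.72 for Car13, and the gray ranges cross 0 for Car2 only.

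The remaining 8 carbonic anhydrase genes of the table had little expression in liver. Car5b, on the X chromosome, was lower in all 3 anti-CD40 mice (0.347, 0.473, and 0.460, against 0.717 to 1.60 in controls), with a log2 difference of -1.22 (SE, 0.24). Both mitochondrial forms were thus lower after anti-CD40. Car7, Car9, Car11, and Car15 overlapped between groups, with log2 differences of -0.48, 0.71, 0.35, and -0.36 and at most 0.679 FPKM in any mouse. Car6, Car10, and Car12 were under the mean of 0.1 FPKM. Car12, a membrane-bound form, had 2, 6, and 5 reads in the anti-CD40 mice and 1 read in the 6 controls together.

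Genes that use bicarbonate as a substrate were then compared, since the mitochondrial and cytosolic forms supply it. All 8 listed genes changed, 7 lower and 1 higher, beside 21.7% and 23.5% of all genes. This list and those of transporters and exporters below were chosen with earlier results of these data known, so nothing is read from their counts. Cps1, which makes carbamoyl phosphate for the urea cycle, fell from 179 ± 25.8 (SD, n = 6) to 94.1 ± 18.9 (SD, n = 3), with a log2 difference of -0.94 (SE, 0.16, adjusted p = 0.000769, limma). Acetyl-CoA carboxylase genes Acaca and Acacb, of fatty acid synthesis and its control, fell by 1.11 and 1.56 on the log2 scale (adjusted p = 0.00889 and 0.0050). The propionyl-CoA carboxylase genes Pcca and Pccb fell by 1.30 and 1.18, and the methylcrotonyl-CoA carboxylase genes Mccc1 and Mccc2, of leucine breakdown, by 1.27 and 1.31. Pcx, pyruvate carboxylase, went the other way, from 60.5 ± 7.60 (SD, n = 6) to 108 ± 2.52 (SD, n = 3), with a log2 difference of 0.85 (SE, 0.12, adjusted p = 0.000221, limma). The median of the list was -1.23. The 11 hepatocyte markers tested had a median of -1.53, with 8 lower and 2 higher, so a shift of this size was not particular to these enzymes. The part of the hepatocyte shift in them was not tested. All 8 were called under each of the 19 alternatives, 7 lower and 1 higher each time.

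Bicarbonate transporters carry bicarbonate and other anions across membranes. Of 20 listed genes, 11 had enough expression to test, and 3 rose and 3 fell, a share near the 23.5% and 21.7% of all genes. Among the called genes, the largest differences were in Slc26a4, an anion exchanger, which fell by 2.46 on the log2 scale (0.0498 ± 0.0156 against 0.736 ± 0.185 FPKM, adjusted p = 1.16e-05), Slc26a2, a sulfate transporter, which rose by 0.92 (adjusted p = 0.00432), and Slc4a4, the electrogenic sodium bicarbonate cotransporter, which rose by 0.87 (adjusted p = 0.000592, all limma). Slc26a7 was listed at 0.01 in all mice. The split was 1 higher and 5 lower with quantile normalization and 3 higher and 1 lower with the Saa genes left out. Without anti-CD40 mouse 2, 3 transporters were called.

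Proton and lactate exporters carry acid out of the cell. Of 12 listed, 9 were tested, and 3 rose and 1 fell, beside 23.5% and 21.7% of all genes. These 4 of 9 (44.4%) are near the 45.1% called over all genes. Slc16a3, the lactate exporter of glycolytic cells, rose from 0.563 ± 0.178 FPKM (SD, n = 6) to 15.1 ± 1.88 FPKM (SD, n = 3). Its log2 difference was 4.56 (SE, 0.24, adjusted p = 6.14e-07, limma). Slc9a7 and Slc9a5, sodium/proton exchangers, rose by 1.37 and 0.96 at levels under 0.4 FPKM (adjusted p = 0.00720 and 0.0128, limma). Slc16a7, the remaining called gene, fell by 0.75 (adjusted p = 0.0211, limma). The split was 2 higher and 2 lower with quantile normalization and 6 higher and none lower with the Saa genes left out. The count was 2 without anti-CD40 mouse 2, and only Slc16a3 passed when control mice 4 and 7 and anti-CD40 mouse 5 were all left out. Slc9a2, Slc9a3, and Slc16a8 were listed at 0.01 in all mice. The neutrophil marker sums given beside Car13 were higher in the same 3 mice as Slc16a3, and their part in it was not tested.

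**Figure D4:**
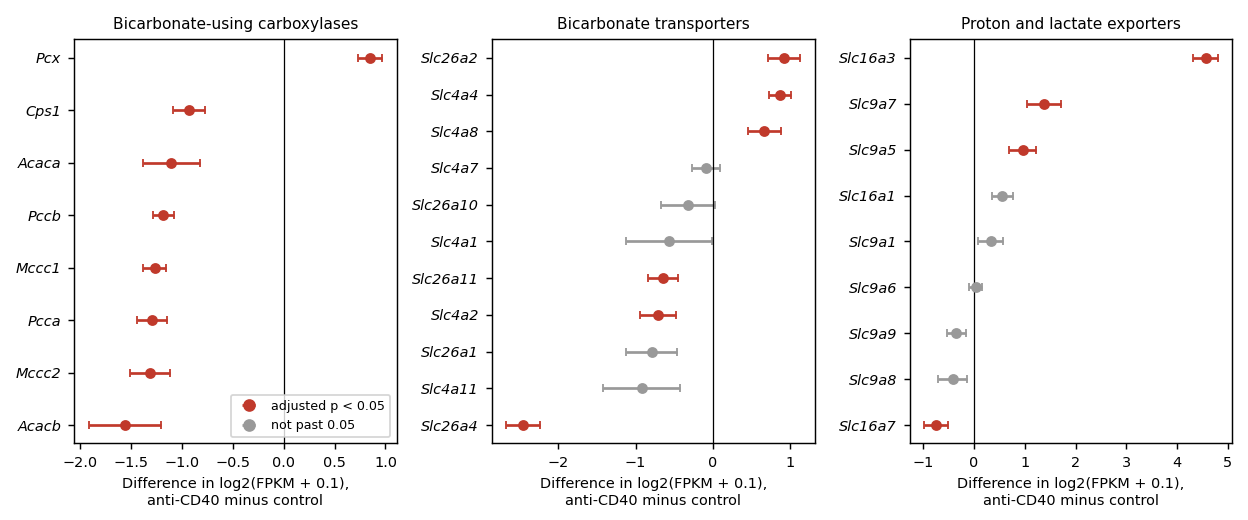
Difference in log2(FPKM + 0.1), anti-CD40 minus control, for the tested genes of 3 lists, with standard errors as bars, and red points for an adjusted p under 0.05. The carboxylases lie at -0.94 or below except Pcx at 0.85, the transporters lie on both sides of 0, and Slc16a3 at 4.56 stands apart among the exporters.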

How the data were processed

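RNA from 9 mouse livers (3 anti-CD40, 6 control) was made into QuantSeq 3′ FWD libraries and sequenced on an Illumina NextSeq. The authors aligned reads to mm10 with STAR and ran Cufflinks and CuffDiff, and they deposited FPKM values for 24341 genes, 1 column per mouse. The annotation and use of strand are not given in the sources used here. Groups came from the sample labels. The 15 genes with a failed estimate were left out. The 13807 genes averaging 0.1 FPKM or more were tested as log2(FPKM + 0.1) in limma (version 3.58.1, R version 4.3.3, lmFit, eBayes with trend, 2-sided, Benjamini-Hochberg adjustment over all genes, threshold 0.05), after checks on simulated data. Read totals are not in the table, so depth is unknown in absolute terms. Whole reads were recovered from FPKM steps for 1049 of 1200 low genes (87.4%, within 0.02 reads), and the value of 1 read was 0.884 to 1.15 relative to the average mouse. That check covered genes averaging under 0.15 FPKM, so Car1, Car4, Car5a, and Car13 lay outside it. The tolerance grew by 5e-05 of the read number. Reads of Car3, Car8, and Car14 were not recovered, and no count test was run. Python 3.11.15 did the remaining steps.

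The members and lists were chosen with earlier results of these data known. Genes were named by rule: all carbonic anhydrase genes, called carboxylases, the 3 called transporters and exporters with the largest change, and, for members averaging 1 FPKM or more, the 3 genes closest in log2(FPKM + 0.1) minus its control mean over the 9 mice. Slc16a7, the sex-linked genes, and the marker genes named were chosen after their values were seen. The zinc-site sequence of the remaining member is not reported here.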

Additional observations from a re-analysis of the deposited data

Results flagged for a closer look

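Among the 16 carbonic anhydrase genes, 3 had a control mouse far from the other 5. Chance flags about 1 gene in 20 where values are not tied, a rate that does not apply to Car10 and Car12, whose other 5 controls were all at 0.01. The gap to the nearest mouse was 0.742 of the whole control range for Car6 in control mouse 4 (FPKM 0.167), 1 for Car10 in control mouse 7 (0.0154), and 1 for Car12 in control mouse 11 (0.0152). The first value stands for 4 reads and the others for 1 read each.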

How the results depend on the processing

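Over all genes, 6230 were called, between 4384 (adjusted p under 0.01) and 7282 (Saa1, Saa2, and Saa3 left out) over 19 alternatives, the latter with 5635 higher and 1647 lower against 3240 and 2990. Called members numbered 6 under 17 of 19 alternatives, 5 of 6 tested at a mean FPKM of at least 1, and 7 without anti-CD40 mouse 9, where Car4 was added. The count of other carbonic anhydrase genes was 1 (Car5b), and it was 2 without the filter (with Car12) and 3 (with Car9 and Car11) when control mice 4 and 7 and anti-CD40 mouse 5 were left out, an alternative chosen after seeing the data. Transporters numbered 3 instead of 6 at a mean FPKM of at least 1 and at an adjusted p under 0.01, and 3 to 7 when single mice were left out. Exporters numbered 2 instead of 4 at an adjusted p under 0.01, 1 without those 3 mice, and 2 to 5 without single mice. Car2 turned to 0.12 with the Saa genes left out and to 0.20 without the 3 mice, and no other member changed direction under any alternative that tested it. Where not stated otherwise, the cause was not tested. Low values limit Car4, Car13, and the genes under 0.1 FPKM. No paired analysis was possible because the groups share no mouse number.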
